A study of Rattus norvegicus with 12 samples.

Results

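The genes described here are 10 early genes that cells switch on within minutes to hours of a stimulus, read from RNA of the left atrium of the rat. They are Sik1, Nr4a1, Nr4a2, Nr4a3, Rcan1, Fos, Junb, Egr1, Atf3 and Klf11, and were taken by symbol from a gene expression table, 10 of the 21239 genes with counts. The family was selected on the measured levels of Sik1, Nr4a1 and Rcan1, which were higher in the ARNI group than in the ARB group, so the values of that contrast are given as a description only.

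The study compared the left atrium of normotensive and hypertensive rats and asked what 2 drugs changed in it. Male Wistar-Kyoto (WKY) rats, the normotensive control strain, and male spontaneously hypertensive rats (SHRs) were 14 weeks old at purchase and were then treated for 4 weeks. The WKY group and the SHR group received saline (7.5 ml/kg/day), the SHRs of the ARB group received the angiotensin receptor blocker valsartan (30 mg/kg/day), and those of the ARNI group sacubitril/valsartan (60 mg/kg/day), in which a neprilysin inhibitor is added to the blocker. There were 3 libraries per group, each from 1 rat, and they are named here by group and replicate number (SHR 3 is the third SHR library).

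Values are CPM, the reads of a gene per 1000000 reads of its library. Library totals ran from 11252361 to 15823525 reads. A gene with no read could be present at up to 3 reads, or 0.190 to 0.267 CPM by library, counting error only. For the 6 saline libraries the strain words of the labels contradict the library names, and the names were followed. The drug-treated libraries carry the words Wistar-Kyoto beside an SHR phenotype, and were taken as SHRs. Mettl24 read 3.02 to 3.58 CPM in the WKY libraries and at most 0.0688 CPM in the other 9, and Ndufa10l1 read 0 in the WKY libraries and 54.0 to 119 CPM in the other 9, so the libraries named WKY stood apart from all 9 others in these genes. The left atrial label did not hold in every library: Myl7, the atrial myosin light chain, read 0.889 to 15.9 CPM in WKY 1 to 3 and 9.67 CPM in ARNI 2, against 4478 to 11547 CPM in the other 8. Myl2, the ventricular light chain, read 2298 to 4161 CPM in WKY 1 to 3, SHR 2, ARB 3 and ARNI 2, and at most 24.2 CPM in the other 6. In RNA of whole tissue, fewer cells of a type and less RNA per cell cannot be told apart.

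Early genes need no new protein to start: calcium, cyclic AMP and kinase signals act on factors already bound at their promoters, such as CREB and serum response factor. In heart muscle they answer stretch, adrenergic drive and injury. Fos, Junb, Egr1 and Atf3 encode transcription factors, the NR4A genes encode orphan nuclear receptors, and Sik1 and Rcan1 encode brakes on the CREB coactivator and calcineurin pathways that induce them.

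The promoters of the 3 genes that led to the set are shown for some of the elements through which such signals are known to act. Sites of calcineurin-regulated factors were not searched. The 250 bases before the RefSeq start (GRCr8, a later build than the one of the counts) are printed in lower case, with the half-site of the cyclic AMP response element (CRE; TGACG, or CGTCA on the other strand), the whole CRE (TGACGTCA), the AP-1 site (TGANTCA) bound by FOS and JUN proteins, and TATAAA in capitals. Sik1 lies at chr20:9958647-9958896 (minus strand), Nr4a1 at chr7:134259888-134260137 (plus strand) and Rcan1 at chr11:45118237-45118486 (minus strand).
Sik1: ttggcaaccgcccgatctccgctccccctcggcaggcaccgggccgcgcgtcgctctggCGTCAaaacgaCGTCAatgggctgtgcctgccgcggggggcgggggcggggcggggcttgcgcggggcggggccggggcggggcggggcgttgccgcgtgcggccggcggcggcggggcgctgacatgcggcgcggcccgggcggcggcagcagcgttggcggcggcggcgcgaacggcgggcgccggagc
Nr4a1: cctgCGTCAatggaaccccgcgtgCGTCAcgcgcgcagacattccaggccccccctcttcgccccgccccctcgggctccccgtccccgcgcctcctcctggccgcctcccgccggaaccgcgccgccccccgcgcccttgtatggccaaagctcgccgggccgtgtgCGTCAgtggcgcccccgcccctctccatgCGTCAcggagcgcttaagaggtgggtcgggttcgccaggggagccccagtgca
Rcan1: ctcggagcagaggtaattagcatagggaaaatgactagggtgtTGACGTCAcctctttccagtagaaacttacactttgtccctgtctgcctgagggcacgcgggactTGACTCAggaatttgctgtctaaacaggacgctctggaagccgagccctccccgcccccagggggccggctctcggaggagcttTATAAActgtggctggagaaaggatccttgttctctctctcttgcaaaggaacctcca
Sik1 held 2 half-sites and Nr4a1 held 4, and at least 2 half-sites occurred in 4.96% of 33469 rat promoters of 300 bases. Rcan1 held 1 whole CRE, in which 2 half-sites overlap (1.83% of promoters), 1 AP-1 site (7.33%) and 1 TATAAA on the gene's own strand (8.8%). All 3 starts lie inside the gene's span in the annotation, and for Rcan1 the window belongs to an internal start. Of the 10 genes, 7 had a promoter entry, and 6 of these 7 held a CRE half-site, which 21.2% of all promoters held, with both strands searched for every motif but TATAAA. Klf11 held none, and Fos, Nr4a3 and Atf3 were not matched. Such matches describe the letters and were not tested as binding sites.

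Fos, the partner of JUN proteins in AP-1, read 27.1, 13.6 and 13.9 CPM in WKY 1 to 3, 23.2, 21.1 and 635 CPM in SHR 1 to 3, 19.0, 31.0 and 20.1 CPM in ARB 1 to 3, and 34.4, 54.5 and 177 CPM in ARNI 1 to 3. SHR 3 held 28.7 times the mean of SHR 1 and 2, and the lowest ARNI library was above the highest ARB library. Junb, another AP-1 subunit, read 69.4, 42.8 and 39.7 CPM in the WKY libraries, 71.0, 71.4 and 461 CPM in the SHR libraries, 63.4, 78.7 and 79.4 CPM in the ARB libraries, and 60.0, 85.2 and 211 CPM in the ARNI libraries. Junb was high in SHR 3 and ARNI 3 alone, ARNI 1 lay below every ARB library, and SHR 1 and 2 lay just above WKY 1.

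Egr1, a zinc finger factor induced through serum response factor, read 60.4, 34.8 and 31.0 CPM in the WKY libraries, 116, 38.8 and 1027 CPM in the SHR libraries, 75.1, 74.8 and 58.1 CPM in the ARB libraries, and 176, 54.3 and 268 CPM in the ARNI libraries. SHR 3 was again the highest, at 3.83 times the next of the 12 libraries, and ARNI 2 lay below all 3 ARB libraries. Atf3, a stress-induced factor of the CREB family, read 4.99, 3.12 and 5.45 CPM in the WKY libraries, 3.40, 8.34 and 129 CPM in the SHR libraries, 3.43, 5.76 and 4.75 CPM in the ARB libraries, and 4.05, 29.3 and 95.8 CPM in the ARNI libraries. Atf3 was thus high in 3 libraries, SHR 3, ARNI 3 and ARNI 2, while ARNI 1 lay within the range of the ARB group.

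Nr4a1 (Nur77), an orphan receptor induced by calcium and cyclic AMP, read 96.2, 41.2 and 46.4 CPM in the WKY libraries, 109.6, 71.6 and 1317 CPM in the SHR libraries, 47.8, 82.3 and 47.0 CPM in the ARB libraries, and 142, 280.0 and 295 CPM in the ARNI libraries. Each ARNI library was above each ARB library and above SHR 1 and 2. Nr4a2 (Nurr1), its near relative, read 7.76, 5.19 and 7.38 CPM in the WKY libraries, 4.57, 5.01 and 48.6 CPM in the SHR libraries, 3.55, 7.09 and 2.85 CPM in the ARB libraries, and 6.02, 13.8 and 10.3 CPM in the ARNI libraries. Only SHR 3 stood far from the other 11 libraries for Nr4a2, and ARB and ARNI overlapped. Nr4a3 (Nor1) read 2.39, 3.65 and 2.93 CPM in the WKY libraries, 8.83, 8.67 and 29.3 CPM in the SHR libraries, 6.75, 9.08 and 3.25 CPM in the ARB libraries, and 4.80, 29.6 and 32.8 CPM in the ARNI libraries. SHR and WKY did not overlap for Nr4a3, and ARNI 2 and 3 reached the level of SHR 3, whereas ARNI 1 did not.

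Sik1, a salt-inducible kinase that shuts CREB coactivators out of the nucleus, read 18.6, 9.30 and 12.8 CPM in the WKY libraries, 19.7, 16.6 and 105 CPM in the SHR libraries, 17.7, 23.1 and 15.9 CPM in the ARB libraries, and 41.8, 44.7 and 47.5 CPM in the ARNI libraries. The ARNI libraries of Sik1 were close together, the highest at 1.14 times the lowest, with a mean of 44.7 ± 2.86 CPM (SD, n = 3) against 18.9 ± 3.78 CPM (SD, n = 3) in the ARB group and 47.1 ± 50.2 CPM (SD, n = 3) in the SHR group. Rcan1, an inhibitor of calcineurin, read 338, 324 and 515 CPM in the WKY libraries, 193, 203 and 375 CPM in the SHR libraries, 288, 203 and 184 CPM in the ARB libraries, and 494, 402 and 655 CPM in the ARNI libraries. For Rcan1 every ARNI library was above every ARB library and above every SHR library, SHR 3 included. Counts per gene do not separate the transcripts of Rcan1 from its internal start from the others.

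Klf11, a Krüppel-like repressor of transcription, read 26.7, 19.0 and 19.996 CPM in the WKY libraries, 20.4, 18.8 and 19.0 CPM in the SHR libraries, 15.1, 12.0 and 10.2 CPM in the ARB libraries, and 22.2, 21.7 and 27.8 CPM in the ARNI libraries. For Klf11, SHR 3 lay within the range of the other SHR libraries, all ARB libraries lay below all SHR libraries, and all ARNI libraries lay above them.

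**Figure D1:**
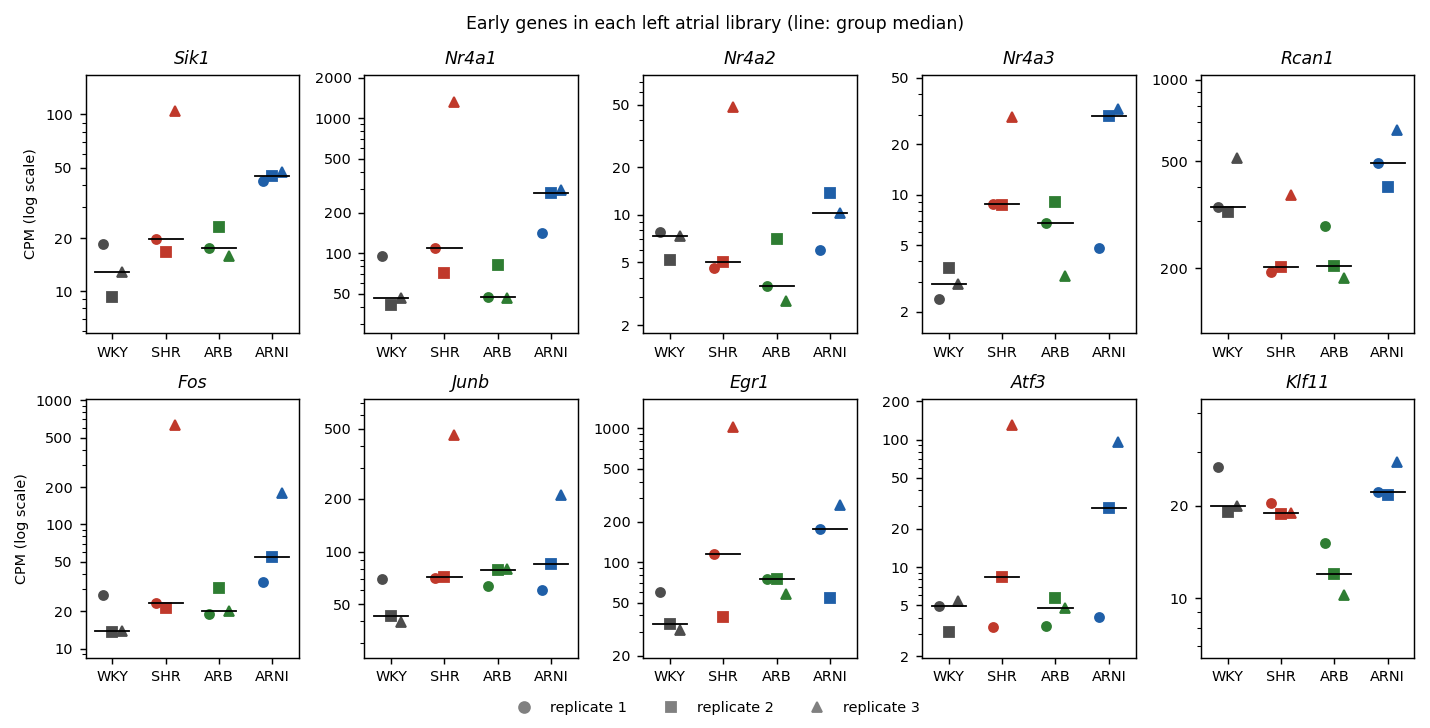
Level of each of the 10 early genes in the 12 libraries, in CPM on log axes with a range of its own for each gene; colours mark the groups, symbols the replicate number, and the line is the group median. SHR 3 is the highest of the 12 libraries for 7 genes and ARNI 3 for Nr4a3, Rcan1 and Klf11.

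SHR 3 and ARNI 3 together held the highest value of every member, 7 in SHR 3 and 3 in ARNI 3. Over the 13542 genes with a mean of at least 1 CPM, 21% were highest in SHR 3 and 9.87% in ARNI 3. SHR 3 held at least 4 times the mean of SHR 1 and 2, with 1 CPM added to each, for 7 members, against 0.502% of these 13542 genes. ARNI 3 ranked among the 3 highest libraries for all 10 members, SHR 3 for 8 and ARNI 2 for 7. No ARB library did so for any member. The share of all genes was not counted for these ranks. Those of the ARNI and ARB libraries restate in part the choice of the genes. The summed level of the 10 genes was 540 CPM in ARB 1, 527 CPM in ARB 2 and 426 CPM in ARB 3. Within the ARB group the highest library was 1.25 times the lowest for Junb and 2.79 times the lowest for Nr4a3.

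**Figure D2:**
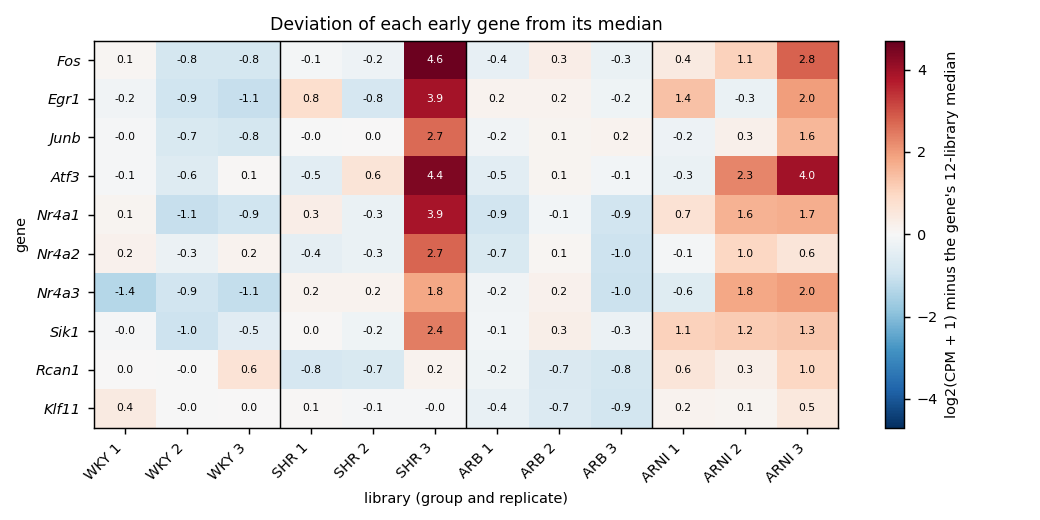
Difference of log2(CPM + 1) of each early gene (rows) in each library (columns) from that gene's median over the 12 libraries; red is above and blue below the median. The SHR 3 column reaches 4.6 for Fos and the ARNI 3 column 4.0 for Atf3, while the Rcan1 and Klf11 rows stay pale in SHR 3.

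The 10 genes did not move as 1 block. Across the 12 libraries, the 28 pairs among the 8 genes other than Rcan1 and Klf11 had Pearson r of log2(CPM + 1) of 0.62 to 0.97 (median 0.86). Without SHR 3 and ARNI 3 the same pairs ran from -0.24 to 0.94 (median 0.60). The 16 pairs of these 8 genes with Rcan1 or Klf11 had r of 0.14 to 0.48, and Rcan1 with Klf11 had r of 0.69. These correlations share libraries, strain and tissue content, and are descriptions.

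Outside the set, the genes most like Sik1 over the 12 libraries, by Pearson r among 13532 genes, were Ppp1r15a (r = 0.95), Csrnp1 (0.92), Ccn1 (0.92), Btg2 (0.91) and Zfp36 (0.90). Those most like Nr4a1 were Csrnp1 (r = 0.97), Btg2 (0.94), Fosb (0.94), Plk3 (0.93) and Otud1 (0.92). Without SHR 3 and ARNI 3 the r of these genes was 0.72 to 0.97. Those most like Rcan1 were others: B3galt2 (r = 0.96), Tnfrsf12a (0.86), Phf24 (0.85) and Slmap (0.85), with r of 0.74 to 0.93 without ARNI 3 and ARB 3. Spearman's rho over these relations was 0.76 to 0.96.

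The comparison of the SHR and WKY groups, whose values the rule behind the choice did not use, asked whether the saline-treated strains differed. The genes were chosen with earlier results of these data known, so the choice cannot be called blind to this comparison. Nr4a3 was higher in the SHR group, with a log2 fold change of 2.21 (SE 0.51) and an adjusted p of 0.0301 by edgeR's quasi-likelihood test. It was the 1 gene of 10 called, which needed a 2-fold difference and an adjusted p under 0.05, beside 8.89% of the 13794 genes tested (5.54% higher in SHR). SHR and WKY libraries did not overlap for Nr4a3 and Junb, against 33.7% of all genes with every SHR library above every WKY library. These shares of the members are near or under the background.

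The other 9 missed the threshold in that test, while 8 of the 10 had a log2 fold change above 0 (51.3% of all genes) and the same 8 were at least 2-fold higher (7.5%). DESeq2 called 2 members, Nr4a3 and Egr1, beside 8.53% of its genes. It gave Nr4a1, Nr4a2 and Fos no adjusted p, so these could not be called by it. Fos differed by a log2 fold change of 3.43 (SE 1.36), Atf3 by 3.18 (SE 1.31), Egr1 by 3.02 (SE 1.12) and Nr4a1 by 2.82 (SE 1.11), with adjusted p of 0.0957 to 0.122 by edgeR's quasi-likelihood test. Junb had a log2 fold change of 1.80 (SE 0.74), Sik1 of 1.61 (SE 0.71) and Nr4a2 of 1.32 (SE 0.90). Rcan1, at -0.76 (SE 0.29), and Klf11, at -0.31 (SE 0.15), had the opposite sign. The large differences rested on SHR 3, and without it Fos was at 0.20, Atf3 at 0.30, Egr1 at 0.77, Nr4a1 at 0.47 and Nr4a2 at -0.59.

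Nr4a3 kept a log2 fold change of 1.46 and its call without SHR 3, and Rcan1 was then called lower at -1.08 (adjusted p = 0.0361, edgeR's quasi-likelihood test), so 2 of 10 members beside 8.23% of all genes. Without SHR 2, 6 of 10 were called, namely Sik1, Nr4a1, Nr4a3, Fos, Junb and Egr1, beside 15.7% of all genes. Nr4a3 lost its call without WKY 1, 2 or 3 in turn, at adjusted p of 0.0953 to 0.110 by the same test of edgeR. In the same comparison all 6 atrial cardiomyocyte markers were called higher in SHR, by log2 fold changes of 7.82 to 13.1, so strain and tissue content cannot be told apart in it.

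**Figure D3:**
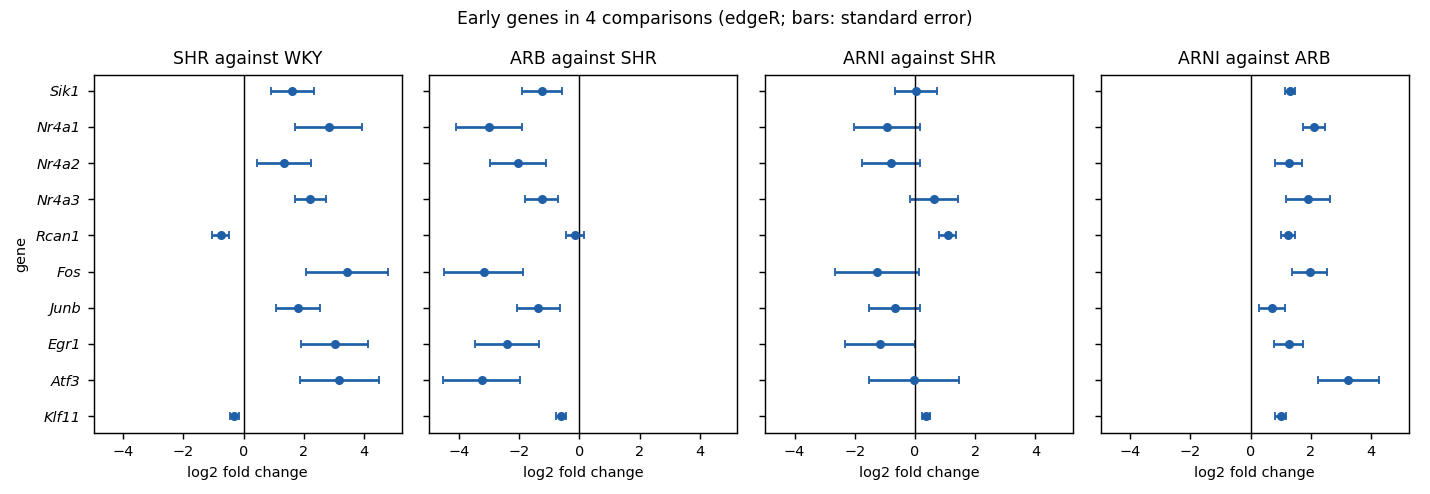
Log2 fold change of each early gene in 4 comparisons of groups (points) with its standard error (bars) from edgeR, 3 libraries per group. In the 3 comparisons with the SHR group the standard errors are 0.51 or more for the 8 genes other than Rcan1 and Klf11, and all 10 points lie above 0 in the comparison of ARNI with ARB, which chose the genes.

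For the ARNI group against the ARB group, the contrast that chose the family, values are given with no test. The log2 fold change was 3.23 (SE 1.01) for Atf3, 2.10 (SE 0.36) for Nr4a1, 1.96 (SE 0.59) for Fos, 1.91 (SE 0.73) for Nr4a3, 1.31 (SE 0.15) for Sik1, 1.27 (SE 0.48) for Egr1, 1.26 (SE 0.46) for Nr4a2, 1.24 (SE 0.24) for Rcan1, 0.997 (SE 0.18) for Klf11 and 0.72 (SE 0.44) for Junb. All 10 were above 0, beside 53.2% of the 13948 genes tested, and 8 were at least 2-fold higher, beside 1.87%. For 5 of them, Sik1, Nr4a1, Rcan1, Fos and Klf11, every ARNI library was above every ARB library, beside 3.01% of all genes. The standard errors of Sik1, Klf11 and Rcan1 were the smallest, and those of Atf3 and Nr4a3 the largest.

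No gene of the table was called in that contrast by edgeR's quasi-likelihood test (0%), and 539 of 13948 (3.86%) had an unadjusted p under 0.05. DESeq2 called 18 genes (0.0969%), 4 of them members, Sik1, Nr4a1, Rcan1 and Klf11. Nothing is read from these counts about the members, since the contrast selected them.

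The differences between ARNI and ARB were also computed without single libraries. Without ARNI 3 the median of the 10 log2 fold changes was 1.19, against 1.29 with it, but Atf3 went from 3.23 to 2.01, Fos from 1.96 to 1.07, Egr1 from 1.27 to 0.79 and Junb from 0.72 to 0.10. Without ARNI 1 all 10 were at least 2-fold higher. Without ARNI 2 and ARB 3, the 2 libraries of these groups with high Myl2, all 10 stayed above 0, with Nr4a2 at 0.64 in place of 1.26 and the others at 0.90 to 3.45.

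Against the saline SHR group, the 2 drug groups differed in sign for part of the family, and both comparisons share the 3 SHR libraries. The ARB and ARNI libraries also entered the choice of genes, so no p of a member is read. For ARB against SHR all 10 members had a log2 fold change below 0, from -3.24 (SE 1.28, Atf3) to -0.14 (SE 0.29, Rcan1), with a median of -1.70 beside -0.01 for all genes, of which 48.6% were above 0. For ARNI against SHR 4 members were above 0 and 6 below, from -1.25 (SE 1.39, Fos) to 1.08 (SE 0.29, Rcan1), with a median of -0.35, beside 50.7% of all genes above 0. In each comparison edgeR's quasi-likelihood test called no gene of the table (0%), with 225 genes (1.61%) at an unadjusted p under 0.05 for ARB and 227 (1.63%) for ARNI. DESeq2 called 3 genes (0.0162%) and 7 genes (0.0376%), none of them members. It gave no adjusted p for Nr4a1, Nr4a2 and Fos in ARB against SHR, nor for Nr4a1 in ARNI against SHR. These could not be called there.

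Side by side, these values restate in part the choice of the genes. Sik1 was at -1.25 (SE 0.67) for ARB against SHR and 0.04 (SE 0.69) for ARNI against SHR. Rcan1 was at -0.14 (SE 0.29) and 1.08 (SE 0.29). Klf11 was at -0.61 (SE 0.17) and 0.38 (SE 0.13), with no overlap of libraries in either comparison, whereas 3% of all genes had every ARB library below every SHR library and 1.38% every ARNI library above. Rcan1 was likewise free of overlap in ARNI against SHR.

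These values turned on SHR 3, which was singled out after its values were seen. Without it, ARB against SHR had 4 members above 0 and 6 below, with a median of -0.14, beside 48.3% of all genes above 0. ARNI against SHR then had all 10 members above 0, with a median of 1.37 and 8 at least 2-fold higher, beside 52.9% and 2.35% of all genes. Nr4a1 went from -0.92 to 1.45, Fos from -1.25 to 2.01 and Egr1 from -1.16 to 1.12, while Rcan1 moved little, from 1.08 to 1.41, and Klf11 from 0.38 to 0.32. With ARNI 3 left out too, an alternative chosen after seeing the data, all 10 were still above 0, with a median of 1.13, beside 51.6% of all genes. With the replicate number as a block and all libraries kept, 7 were above 0 and 3 below, with a median of 0.28.

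**Figure D4:**
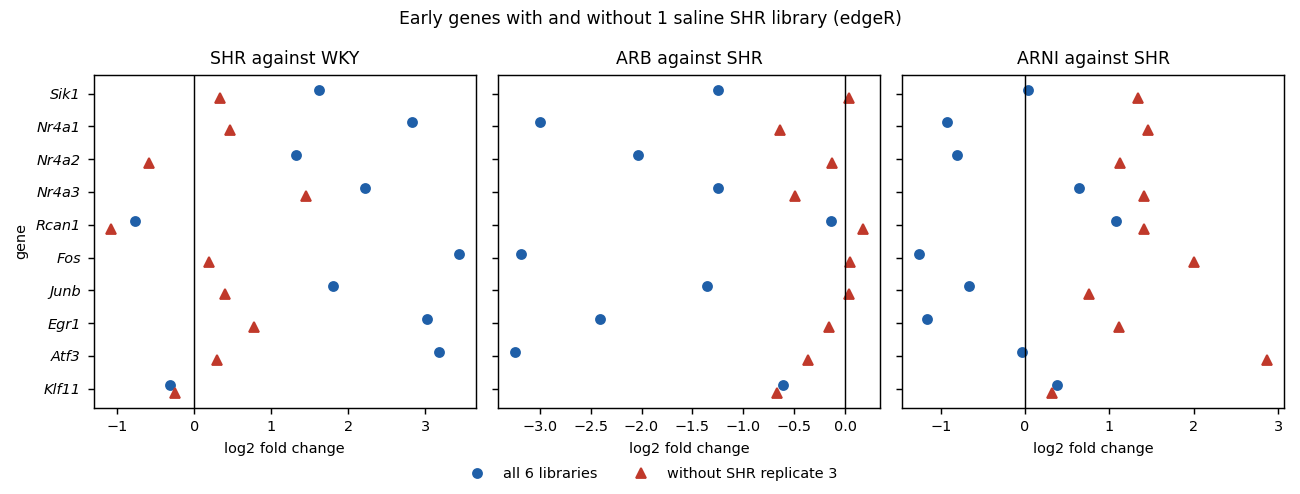
Log2 fold change of each early gene from edgeR with all 6 libraries of a comparison (circles) and without SHR 3 (triangles), in 3 comparisons that use the SHR group. In ARB against SHR the triangles gather around 0, and in ARNI against SHR all 10 triangles lie above 0, whereas 6 circles lie below it.

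The rest of the early response was read from lists of its known members. In ARNI against ARB these lists reuse the libraries that chose the family, so their values restate in part that choice. Of 29 other immediate early transcription factors, 27 were tested in ARNI against ARB, and 21 of these were higher, beside 53.2% of all genes. At least 2-fold higher were 7, beside 1.87%, and the median log2 fold change was 0.62 beside 0.02 for all genes. The quasi-likelihood test of edgeR called 0 of them and DESeq2 called 2, beside 0.0969% of its genes. Fosb, a further AP-1 subunit, read 2.84, 6.40 and 1.82 CPM in ARB 1 to 3 and 13.2, 18.6 and 56.9 CPM in ARNI 1 to 3, and 398.5 CPM in SHR 3 against 3.34 and 3.15 CPM in SHR 1 and 2. As for Fos, SHR 3 was the highest and each ARNI library was above each ARB library, which held for 3.01% of all genes. Egr2, a relative of Egr1, read 1.12, 1.65 and 0.951 CPM in ARB 1 to 3, 3.48, 2.44 and 18.2 CPM in ARNI 1 to 3, and 79.1 CPM in SHR 3. In SHR against WKY 26 of these factors were tested, 21 were higher and 0 were called by edgeR's quasi-likelihood test or by DESeq2, with 5 at an unadjusted p under 0.05 and a median of 0.51 beside 0.01 for all genes.

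Of 39 effectors and feedback genes that are induced early, 38 were tested, and 29 were higher in ARNI than in ARB, beside 53.2% of all genes. Their median in that contrast was 0.45. Ccn1, a matricellular protein induced by stretch, read 52.0, 54.6 and 1140 CPM in the SHR libraries, 61.6, 63.0 and 59.5 CPM in the ARB libraries, and 108.0, 106 and 443 CPM in the ARNI libraries. As for Nr4a1, each ARNI library was above each ARB library and SHR 3 was the highest. In SHR against WKY edgeR called 3 of the 38 higher and 2 lower, with a median of 0.19, beside 8.89% of all genes called, and DESeq2 called 8 of the 38, beside 8.53%. Zfp36l2, which speeds mRNA decay, rose by 2.10 on the log2 scale (SE 0.36), Rgs2, a brake on G protein signalling, by 1.32 (SE 0.30), and Dusp10, a MAP kinase phosphatase, by 1.03 (SE 0.24), at adjusted p of 0.0146 to 0.0296 by edgeR's quasi-likelihood test. Cdkn1a, a cell cycle inhibitor, fell by 2.53 (SE 0.53) and Gadd45b, a stress sensor, fell by 1.04 (SE 0.25), at adjusted p of 0.0235 and 0.0330 by that test of edgeR. Cdkn1a was also higher in the libraries with high Myl2 than in the others of each SHR-strain group. It read 38.9 CPM in SHR 2, 30.3 CPM in ARB 3 and 76.8 CPM in ARNI 2, against 7.96 to 35.6 CPM in those others. Rgs2 was lowest of each group in the same libraries, at 14.35, 8.88 and 9.59 CPM. Gadd45b was highest of its group in ARB 3 (18.0 CPM) and ARNI 2 (21.7 CPM), but not in SHR 2. Zfp36l2 was lowest of its group in SHR 2 (3.14 CPM) and ARB 3 (1.87 CPM), but not in ARNI 2. The part of tissue content in these differences was not tested.

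The upstream signalling genes had medians closer to that of all genes. In ARNI against ARB the median was 0.09 for 30 genes of the CREB, CRTC and salt-inducible kinase arm, 0.07 for 20 genes of the calcineurin and NFAT arm, and 0.11 for 24 genes of the SRF, TCF and MAP kinase arm. In SHR against WKY the 3 medians were -0.01, -0.05 and -0.06, and 0 genes of each arm were called by edgeR's quasi-likelihood test or by DESeq2, with 6, 6 and 4 genes at an unadjusted p under 0.05. Nfatc2, a calcineurin-regulated factor, was just short of the fold threshold, at 0.99 (SE 0.17, adjusted p = 0.0146, edgeR's quasi-likelihood test). Braf, of the MAP kinase arm, was at 0.93 (SE 0.11, adjusted p = 0.0058, same test of edgeR). Nfatc2 was lowest of its group in the SHR-strain libraries with high Myl2, at 62.8 CPM in SHR 2, 44.9 CPM in ARB 3 and 45.8 CPM in ARNI 2. Braf was lowest in the same libraries, and the part of tissue content was not tested. SHR 3 held the highest value for 17 of 26 other immediate early transcription factors and 24 of 38 effectors, against 11 of 30, 4 of 20 and 4 of 24 genes of the upstream arms. It also held the highest value for 4 of 6 fibroblast markers (66.7%) and 2 of 5 mesothelial markers (40.0%).

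**Figure D5:**
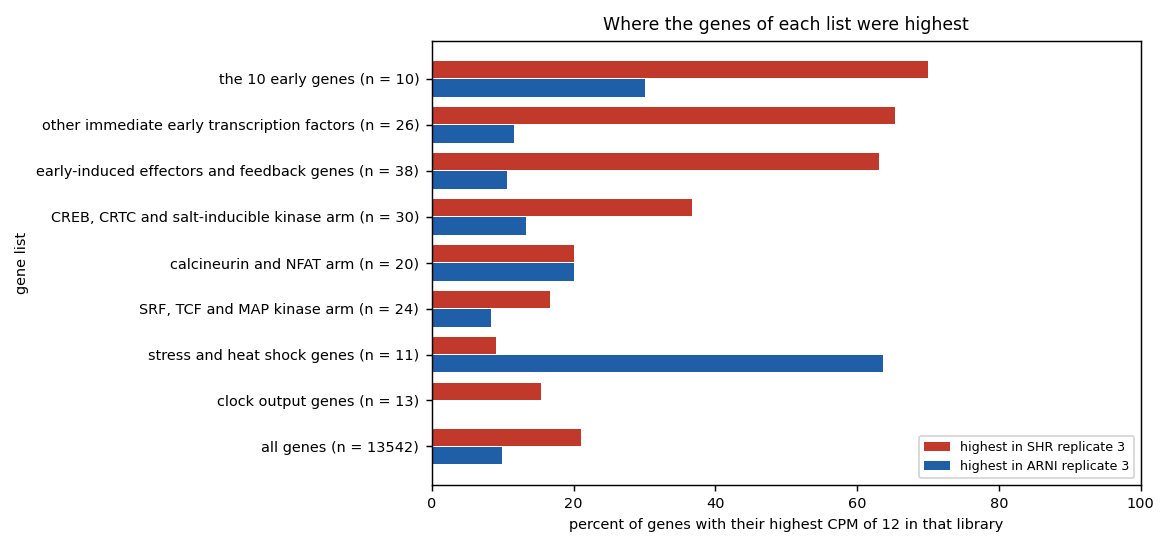
Share of the genes of each list, at a mean of at least 1 CPM, whose highest CPM of the 12 libraries was in SHR 3 (red) or ARNI 3 (blue), with all 13542 genes as the last pair of bars. The early genes, the other immediate early factors and the effectors peak in SHR 3, at 70.0%, 65.4% and 63.2%, and heat shock genes peak in ARNI 3. Fibroblast markers, not drawn, also peak in SHR 3, at 66.7%.

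Other features of the libraries differed too, and their part in the early gene levels was not tested. In SHR 3 the 6 fibroblast markers summed to 2417 CPM, against 1141 and 840 CPM in SHR 1 and 2, and the 6 macrophage markers summed to 218 CPM, against 104 and 74.2 CPM. Fibroblast markers summed to 1116.5, 1637 and 1735.5 CPM in ARB 1 to 3, and to 758, 893 and 1770 CPM in ARNI 1 to 3. Macrophage markers summed to 109, 208 and 312 CPM in ARB 1 to 3, and to 45.8, 79.8 and 158 CPM in ARNI 1 to 3. These 2 sets of markers were thus not low in the ARB libraries, where the early genes were low. ARNI 3 held 775 CPM of 6 smooth muscle and pericyte markers (183 to 403 CPM in the other 11 libraries), 105 CPM of 6 neuron markers (at most 16.5 CPM in the others), 391 CPM of 5 adipocyte markers (361 CPM in ARB 2 and at most 15.3 CPM in the other 10), and 4338 CPM of 11 heat shock genes (2321 to 3048 CPM in the others). In ARNI 1 and 2 the smooth muscle markers summed to 264 and 262 CPM and the neuron markers to 13.5 and 6.92 CPM. The adipocyte markers summed to 0.126 and 0.236 CPM in them. ARNI 2 held 74.2 CPM of 6 atrial cardiomyocyte markers, against 36881 to 74320 CPM in the ARB libraries. It held 18563 CPM of 5 ventricular markers, against 434 to 10624 CPM in the ARB libraries.

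Genes of the circadian clock were listed as well. Of 13 tested in ARNI against ARB, 4 were higher and 9 lower, with a median of -0.42. The quasi-likelihood test of edgeR called 0, with 5 at an unadjusted p under 0.05, beside 3.86% of all genes. DESeq2 called 1, beside 0.0969% of its genes. Arntl, the clock activator BMAL1, read 27.7, 36.8 and 34.1 CPM in the WKY libraries, 4.08, 8.75 and 28.2 CPM in the SHR libraries, 4.10, 3.16 and 2.62 CPM in the ARB libraries, and 62.7, 12.3 and 17.2 CPM in the ARNI libraries. Arntl was therefore above every ARB library in each ARNI library, and was high in SHR 3 among the SHR libraries. Dbp, a target of the clock that runs in the opposite phase, read 54.3, 41.5 and 44.8 CPM in the WKY libraries, 259, 159 and 119 CPM in the SHR libraries, 202, 235 and 246 CPM in the ARB libraries, and 17.1, 113 and 123 CPM in the ARNI libraries. Dbp was lower in each ARNI library than in any ARB library and lowest of the SHR libraries in SHR 3. Of 13 clock genes tested in SHR against WKY, edgeR called 3 higher and 0 lower, beside 5.54% of all genes called higher. DESeq2 called 5 of the 13, beside 8.53% of its genes. The 3 were Dbp, higher by 1.81 (SE 0.30), Hlf by 1.57 (SE 0.41) and Per3 by 1.31 (SE 0.20), at adjusted p of 0.0107 to 0.0419 by edgeR's quasi-likelihood test. The hour at which each heart was taken is not given in the sources used here, and its part in the levels of the early genes was not tested.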

How the data were processed

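RNA from the left atrium was sequenced as single reads of 50 bases on the BGISEQ platform. The authors used SOAPnuke to filter reads, HISAT2 (2.0.4) and Bowtie2 (2.2.5) to align them and RSEM to estimate levels, and deposited expected counts per gene, with no normalization. The submitters' processing notes name the build Rnor_6.0. The deposited table lists 37246 genes, 16007 of them with no counts, and 23.6% of the values were not whole, because a read that matches several genes is shared out. The values of 4 of the 10 genes (Atf3, Klf11, Nr4a2 and Fos) included parts of reads. Of the files, 2 further columns hold the authors' own comparison of SHR with WKY (log2 fold change and p) and were not used.

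Expected counts were rounded, low genes removed by filterByExpr, libraries scaled by TMM, and the 6 libraries of each comparison compared by the quasi-likelihood test of edgeR 4.0.16 in R 4.3.3. Benjamini-Hochberg adjustment ran over all genes tested. Genes were called with the thresholds of the study, a log2 fold change of 1 in either direction and an adjusted p of 0.05. All 10 early genes passed the filter in all 4 comparisons. Standard errors were derived from the F statistic. CPM were computed from the unrounded values and library totals, and correlations used log2(CPM + 1). Alternatives were DESeq2 1.42.0 (the tool of the authors), its size factors, library totals, no filter, 1 fit of all 12 libraries, the replicate number as a block, each library left out, libraries over 100 CPM of Myl2 left out, and the other saline libraries as the SHR group. The steps were tested on simulated data. Tables and plots were made in Python 3.11.15 (pandas 2.3.3, matplotlib 3.10.9, scipy 1.17.1, numpy 2.4.6). Promoters came from RefSeq (GRCr8) and were matched by the gene ID of the deposited table.

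The genes and the lists were chosen with earlier results of these data known. Named besides the 10 genes were, of each other list, up to 4 called genes with the largest change in ARNI against ARB and in SHR against WKY (the largest 2 where none was called), the 5 genes most correlated with Sik1, Nr4a1 and Rcan1 each, and label checks. Dusp10 lay outside this rule and was named after its values were seen. Nfatc2 fell under the rule, and its values too were seen before it was named. Libraries were taken as separate rats, as the study states, so p-values measure the spread between 3 rats per group.

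The replicate numbers of the labels were checked for pairing by correlating deviations from the group means over 14452 genes. Same-numbered SHR and ARNI libraries had r of 0.509, 0.464 and 0.185, all above 0.1, although no label ties them to a shared day or litter. Libraries with different numbers reached similar r, at 0.585 for ARB 3 with ARNI 2 and 0.512 for SHR 2 with ARB 3. SHR 2, ARB 3 and ARNI 2 are the SHR-strain libraries high in Myl2, and the part of tissue content in r was not tested. The other pairs of groups had at least 1 negative or near-zero r and were not taken as paired. Replicates within a group differed by more than sampling noise, with chi-square per degree of freedom of 4.03 to 231. 1 gene that the rule for named genes picked is not reported here.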

Additional observations from a re-analysis of the deposited data

How the results depend on the processing

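The number of called genes in SHR against WKY was 1226, with 1 of the 10 early genes. DESeq2 called 1595 genes and 2 early genes (Nr4a3 and Egr1), 1 fit of all 12 libraries called 579 and 0, and leaving out SHR 2, the SHR library high in Myl2, called 2205 and 6. Leaving out 1 library at a time gave 348 to 2205 genes and 0 to 6 early genes. DESeq2 gave Nr4a1, Nr4a2 and Fos no adjusted p in SHR against WKY. Nr4a3 was at an adjusted p of 0.0753 in the 12-library fit of edgeR. Library totals in place of TMM moved the median of all genes in SHR against WKY from 0.01 to 0.15 on the log2 scale, and other medians by less than 0.1. In the 3 comparisons with drugs, 0 genes were called except by DESeq2 and with the other saline libraries, those named WKY, as the SHR group. DESeq2 called 3 in ARB against SHR, 7 in ARNI against SHR, and 18 in ARNI against ARB with 4 early genes. The libraries named WKY gave 1526 in ARB against SHR and 34 in ARNI against SHR.

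With the replicate block, 681 genes and 0 early genes were called in SHR against WKY, where the numbers do not pair the samples, and Nr4a3 had an adjusted p of 0.0567 (edgeR). In ARNI against SHR the block turned the sign of Nr4a1 (0.18), Fos (0.13) and Atf3 (0.58). It changed no call in the comparisons with drugs.

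Signs in ARNI against SHR also turned for Atf3 with DESeq2 (0.0178) and its size factors (0.0125), and for Sik1 with library totals (-0.0780) and without libraries high in Myl2 (-0.41). With the other saline libraries, those named WKY, as the SHR group, ARNI turned for Nr4a1 (1.92), Nr4a2 (0.53), Fos (2.21), Junb (1.16), Egr1 (1.89) and Atf3 (3.17). ARB then turned for Sik1 (0.38), Nr4a3 (0.98), Fos (0.26), Junb (0.46) and Egr1 (0.63). The libraries named WKY stood apart from all others in Mettl24 and Ndufa10l1 and were low in Myl7. Strain and tissue content therefore change with this swap. This swap only inverts the sign of SHR against WKY, so it was not run there. Without SHR 3 and ARNI 3, chosen after seeing the data, ARNI against SHR turned for Nr4a1 (1.33), Nr4a2 (1.15), Fos (1.10), Junb (0.12), Egr1 (0.63) and Atf3 (1.63). Leaving out 1 library, log2 fold changes whose sign turned ranged from -0.59 to 1.79 for Nr4a2 in SHR against WKY. In ARB against SHR they ranged from -1.63 to 0.035 for Sik1, -0.36 to 0.17 for Rcan1, -3.72 to 0.0535 for Fos and -1.76 to 0.0401 for Junb. In ARNI against SHR they ranged from -0.35 to 1.34 for Sik1, -1.43 to 1.45 for Nr4a1, -1.27 to 1.12 for Nr4a2, -2.15 to 2.01 for Fos, -1.29 to 0.75 for Junb, -1.69 to 1.12 for Egr1 and -1.26 to 2.87 for Atf3. Each of these signs turned without SHR 3, except that of Sik1 in ARNI against SHR, which turned without SHR 1, SHR 2 or ARNI 2. That of Atf3 in ARNI against SHR turned also without ARNI 1 or ARNI 2. In ARNI against ARB no sign turned in 130 alternative values. That contrast chose the genes and the alternatives reuse its libraries, so nothing is read from this. The causes were not tested. Depth limited none of the 10 genes, which were counted in every library above the limit that a count of 0 allows.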

Other observations

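Heat shock genes, which encode chaperones induced by heat and other protein stress, had fold changes toward ARNI, with the highest summed level in ARNI 3. Of 12 listed, 11 were tested in ARNI against ARB, and all 11 were higher, beside 53.2% of all genes. The median log2 fold change was 0.38 beside 0.02 for all genes. EdgeR's quasi-likelihood test and DESeq2 called 0, and 1 had an unadjusted p under 0.05. The 11 summed to 2428, 2625 and 2787 CPM in ARB 1 to 3. In ARNI 1 to 3 they summed to 2685, 3048 and 4338 CPM, so ARNI 1 lay within the range of the ARB group. Hspb1, a small heat shock protein abundant in muscle, read 255, 205 and 219 CPM in ARB 1 to 3 and 237, 207 and 727 CPM in ARNI 1 to 3, so the groups overlapped and ARNI 3 alone stood above. ARNI 3 held the highest value of the 12 libraries for 7 of the 11 genes. SHR 3, where most early genes were highest, held it for 1. In SHR against WKY 6 of the 11 were higher and 5 lower, with a median of 0.10.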
